A study of Mus musculus with 32 samples.

Results

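Complex I of the respiratory chain is encoded in the nucleus by the Ndufa, Ndufb, Ndufc, Ndufs and Ndufv genes and in the mitochondrial genome by the mt-Nd genes. The genes described here are the gene rows whose names start with Nduf, then a, b, c, s or v, then a digit, kept where the mean over the 32 libraries was at least 1 CPM (a gene's counts scaled to the library's counts in genes). Of 24062 genes in the count tables, 37 had such a name and 35 were kept. Ndufs5 (0.246 CPM) and Ndufa4l2 (0.513 CPM) fell below the minimum, whereas the lowest genes kept were Ndufa11 (12.3 CPM) and Ndufb7 (13.9 CPM) and the highest was Ndufa4 (141 CPM). Ndufab1, the mitochondrial acyl carrier protein, lies outside the name pattern, and Ndufb1-ps and the mt-Nd genes were not analysed here.

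RNA came from the cortex of S100a10 bacTRAP mice, strain Tg(S100a10-EGFP/Rpl10a)ES691Htz, in which regulatory elements of S100a10 drive a ribosomal protein fused to EGFP. Ribosome-bound RNA pulled down with antibodies to EGFP (TRAP) and RNA of the whole cortex (input) were each sequenced from 4 groups, with 4 libraries per group and fraction and cortices of 3 mice pooled in a library. All mice were adult males, and hippocampus and striatum had been removed. Sh + Flx anxious mice were isolated from weaning and given fluoxetine in the drinking water at 0.167 g/L for 21 days, and were classed as anxious in the open field after treatment. Sh + Flx mice had the same isolation and fluoxetine and were not anxious in that test. Sh mice were isolated and given vehicle, and Gh mice were group-housed littermates given vehicle. The transgene marks any cell in which the S100a10 elements are active, and nothing in the sources says whether TRAP and input libraries with the same number came from the same mice.

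Complex I takes electrons from NADH, passes them along a row of iron-sulfur clusters to ubiquinone and pumps protons across the inner mitochondrial membrane. It is L-shaped, with a peripheral arm in the matrix that carries the electron path and a membrane arm that carries the pumps. Core subunits do the chemistry, and accessory subunits surround them and are needed for assembly and stability. Neurons draw most of their ATP from oxidative phosphorylation. The kept genes comprise 7 core subunits of the peripheral arm, 9 accessory subunits of the peripheral arm, 8 accessory subunits of the proximal membrane arm (nearest the peripheral arm), 10 of the distal membrane arm, and Ndufa4, which is named after complex I but is now counted as a subunit of complex IV.

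The genes were short. The median length of the longest RefSeq transcript was 795 bases (351 to 2927), against 2275 bases for the 22511 genes of the tables that had a length. Exons of 7 genes (Ndufa1, Ndufa2, Ndufa9, Ndufa13, Ndufb11, Ndufs1 and Ndufv2) overlap those of another gene, and Ndufa12 has a named pseudogene. The library kit does not mark strand, so counts of these 8 genes may hold reads of the other gene or copy.

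Promoter windows of RefSeq GRCm38.p6, from 250 bases before to 50 bases after each transcription start, were found for 31 of the 35 genes. Letters bound by 3 factors known to act on respiratory genes were searched on both strands. AAGATGGCG, bound by YY1, was in the windows of 5 genes (Ndufa9, Ndufc1, Ndufs4, Ndufs6 and Ndufs7), and 1.64% of all 27025 genes with a window hold it. CCGGAAG, bound by ETS factors such as GABPA, was in the windows of 4 genes (Ndufb6, Ndufb7, Ndufs3 and Ndufs8), and 9.93% of all genes with a window hold it. The 10 letters bound by NRF1, printed in capitals for Ndufa8 as they read on the gene's own strand, were in the window of Ndufa8. Of all genes with a window, 1.12% hold them on either strand. The median GC content was 59.0% over the 31 genes and 52.7% over all genes with a window. The 5 stretches with the YY1 letters are shown because the letters lie downstream of the start, in the same orientation in each gene. Their first base is between positions 23 and 36 (start = 1), and their ATG is the annotated start codon in 5 of 5. Capitals mark the letters searched.
Ndufa9: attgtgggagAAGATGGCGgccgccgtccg
Ndufc1: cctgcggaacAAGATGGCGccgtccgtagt
Ndufs4: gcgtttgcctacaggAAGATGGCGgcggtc
Ndufs6: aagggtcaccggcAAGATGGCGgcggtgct
Ndufs7: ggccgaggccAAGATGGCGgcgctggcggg
They lie at chr6:126849096-126849125 on the minus strand (Ndufa9), chr3:51408914-51408943 minus (Ndufc1), chr13:114388045-114388074 minus (Ndufs4), chr13:73328433-73328462 minus (Ndufs6) and chr10:80249463-80249492 plus (Ndufs7).

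The bases from 90 before the start to the start itself follow for Ndufa8, Ndufa11 and Ndufs4. With all libraries these genes were called higher in TRAP RNA of both fluoxetine groups than of Sh mice, as was Ndufb10. Capitals mark the NRF1 letters. A match is a description of the sequence, and where no capitals stand the letters searched are not in that stretch.
Ndufa8: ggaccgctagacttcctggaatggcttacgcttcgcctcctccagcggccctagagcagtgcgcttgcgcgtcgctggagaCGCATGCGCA
Ndufa11: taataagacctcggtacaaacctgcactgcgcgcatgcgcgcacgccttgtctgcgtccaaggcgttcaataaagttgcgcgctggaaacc
Ndufs4: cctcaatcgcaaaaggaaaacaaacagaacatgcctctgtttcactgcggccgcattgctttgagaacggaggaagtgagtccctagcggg
They lie at chr2:36049338-36049428 on the minus strand (Ndufa8), chr17:56717672-56717762 plus (Ndufa11) and chr13:114388094-114388184 minus (Ndufs4).

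Counts in genes ranged between 9776244 and 64788703 per TRAP library and between 19265435 and 34515281 per input library. S100a10, the gene behind the tag, stood at 41.5 to 73.0 CPM in 14 TRAP libraries and at 5.45 to 10.3 CPM in input. Sh TRAP 2 and Sh TRAP 3 stood apart, with 20.4 and 11.2 CPM of S100a10. They also held 25397 and 40707 CPM of the nuclear RNA Malat1, against 3106 to 8117 CPM in the other TRAP libraries and 25765 to 45584 CPM in input. Their summed nuclear RNA, oligodendrocyte, interneuron and astrocyte marker lists lay above those of the other TRAP libraries, and the oligodendrocyte sums of 1052 and 1448 CPM compare with 484.7 to 981.4 CPM there and 1111 to 2090 CPM in input. Their meningeal fibroblast sums of 3115 and 2467 CPM lay below the 4863 to 10980 CPM of the other TRAP libraries, and so did the pan-neuronal and layer 5 sums of Sh TRAP 2 and the mural cell sum of Sh TRAP 3. Counts and the main fold changes that use Sh TRAP are therefore also given without these libraries, which leaves Sh TRAP 1 and 4 (n = 2). The labelled cell type is S100a10 neurons of layer 5a. Relative to input, in TRAP RNA of Gh mice 3 of 7 layer 5 markers were higher and 3 lower, whereas all 8 meningeal fibroblast markers were higher (median log2 fold change 5.32) and so were 7 of 8 endothelial markers. No marker was at 0 in every library of a fraction. Counts of Gh TRAP 2 and Gh TRAP 3 lay within sampling noise of each other, so their sum was used as 1 sample, which leaves n = 3 for Gh TRAP. Sh TRAP 1 and 4 came next in likeness, with a mean chi-square per gene of 2.17 between their counts (498 of 14321 genes and 0 of 35 complex I genes differing), against 1.13 (11 of 14157 genes) for Gh TRAP 2 and 3 and 15.1 to 407 for the other pairs within TRAP groups. They differed beyond sampling noise and were kept as 2 samples, and the spread of Sh TRAP without libraries 2 and 3 is the spread of this pair. The study's methods describe 4 biological replicates per condition, each of 3 pooled mice. The labels do not name the pool behind each library, and p-values measure only the spread between libraries.

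The summed level of the 35 genes was higher in TRAP than in input RNA, except in Sh TRAP 2 and 3. On the scale used below for all levels (CPM scaled by TMM, a normalization of library sizes), the sum was 1988 ± 134 CPM in TRAP and 1345 ± 102 CPM in input of Sh + Flx anxious mice (SD, n = 4 each), and 1879 ± 162 CPM in TRAP and 1338 ± 32.4 CPM in input of Sh + Flx mice (SD, n = 4 each). In Sh mice it was 1701, 1195, 827 and 1716 CPM in the 4 TRAP libraries, with 1311 ± 40.9 CPM in input (SD, n = 4). In Gh mice it was 1758 ± 34.4 CPM in TRAP (SD, n = 3) and 1474 ± 160 CPM in input (SD, n = 4). Sh TRAP 2 and 3 lay below every input library (1251 to 1664 CPM), and every other TRAP library lay above every input library, with the exception of Sh + Flx TRAP 4 (1663 CPM), which was level with Gh input 2 (1664 CPM).

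**Figure D1:**
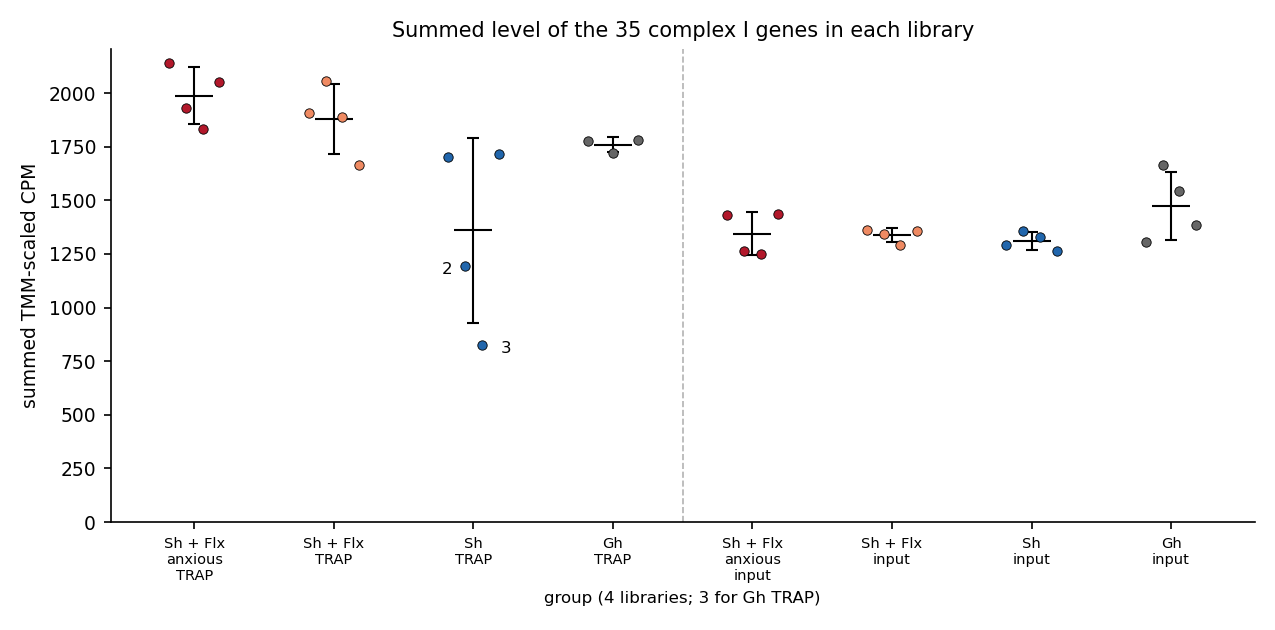
Summed level of the 35 complex I genes in each library (TMM-scaled CPM), with TRAP libraries left of input libraries. Points are libraries, and horizontal lines and bars show the group mean and SD. Sh TRAP 2 (1195) and Sh TRAP 3 (827), numbered, lie below the range of input libraries (1251 to 1664).

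The same libraries stood apart gene by gene. By library, the plot shows Ndufa2, Ndufv3, Ndufb4, Ndufb6 and Ndufa13 above input throughout the TRAP libraries other than Sh TRAP 2 and 3. Ndufv1 lay below input in every TRAP library of the fluoxetine groups, and Ndufs1 and Ndufb2 lay close to input. Ndufa10 lay close to input in TRAP libraries of the fluoxetine groups and below it in those of Sh and Gh mice. Ndufs1, which carries iron-sulfur clusters of the electron path, was the gene that went the other way in the libraries that stood apart, at 82.5 and 86.9 CPM in Sh TRAP 2 and 3 and at 52.7 and 55.9 CPM in Sh TRAP 1 and 4.

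**Figure D2:**
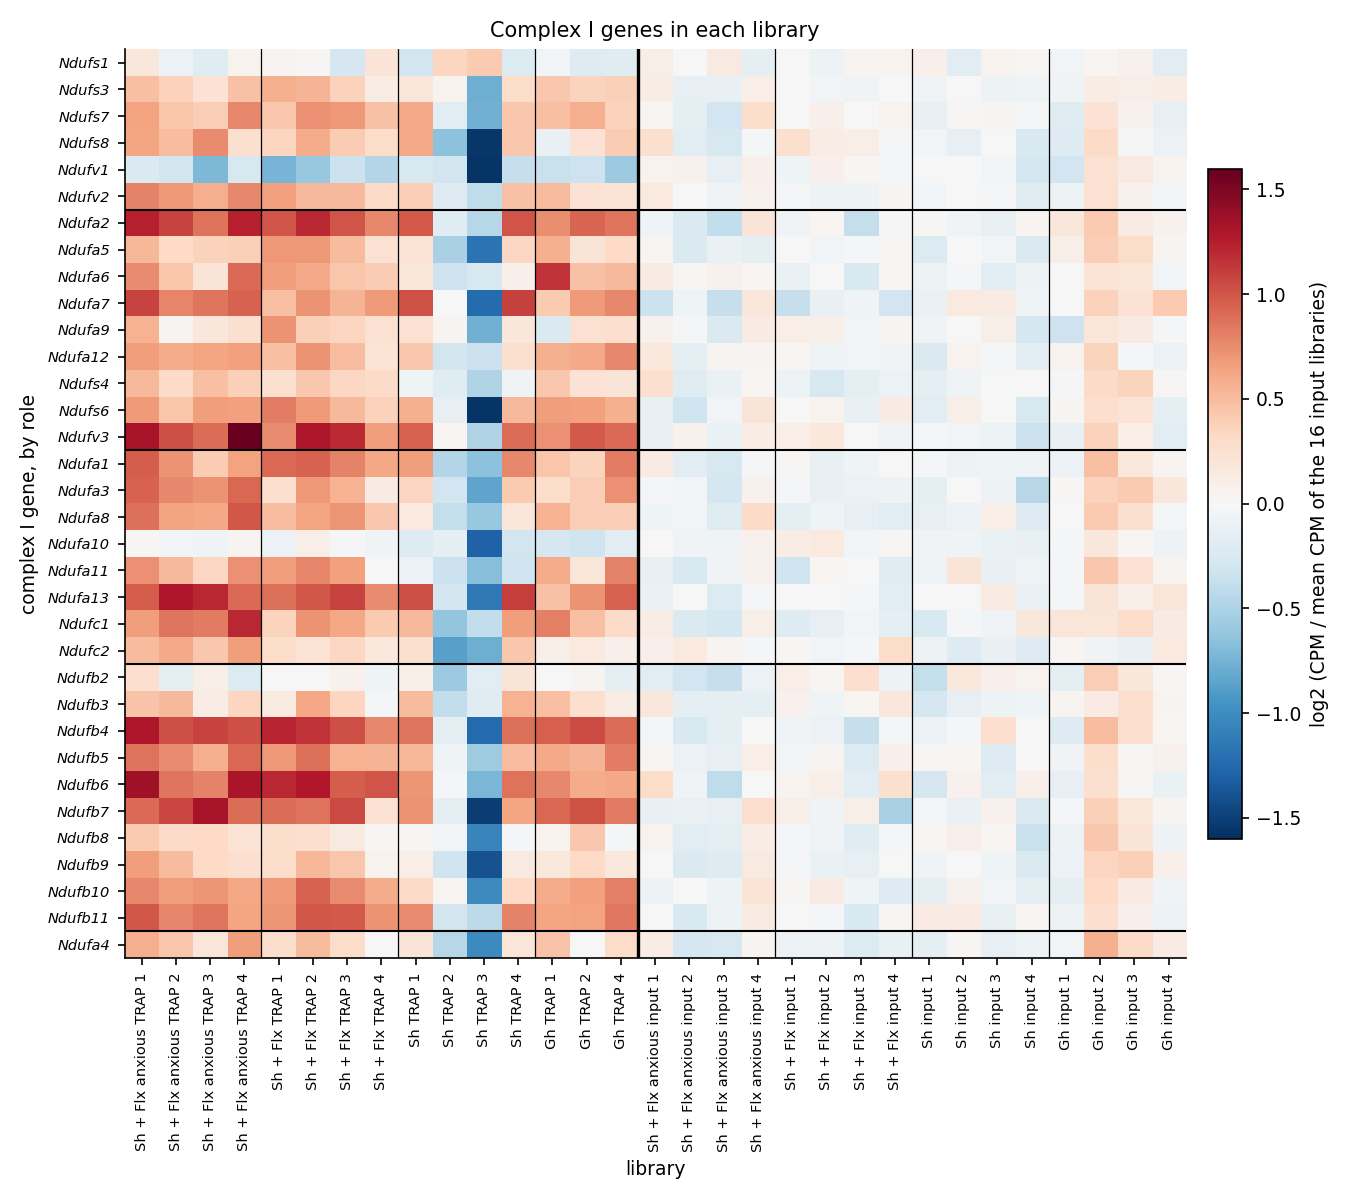
Level of 34 of the 35 complex I genes (rows, ordered by role) in each library (columns, TRAP left of input), as log2 of the TMM-scaled CPM over the gene's mean in the 16 input libraries, with the colour scale limited to 1.6 in either direction. Most TRAP columns are red, and those of Sh TRAP 2 and 3 are blue for nearly all genes other than Ndufs1.

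Levels differed widely between the genes. Per kilobase of the longest transcript, mean input levels of Gh mice ran between 4.51 CPM per kb for Ndufa11 and 311 CPM per kb for Ndufa4 (n = 4). Below Ndufa4 came Ndufb9 (120 CPM per kb) and Ndufc1 (89.5 CPM per kb), of the distal and the proximal membrane arm. The core subunits Ndufs1 (21.8 CPM per kb) and Ndufv1 (21.6 CPM per kb) were level with each other within the SD of 1.55 and 3.35 CPM per kb, and Ndufs3 (71.7 CPM per kb), of the quinone-binding module, stood above them. In TRAP RNA of Gh mice Ndufa4 (312 CPM per kb) and Ndufa11 (5.83 CPM per kb) again marked the ends of the range, and Ndufb4 came next to Ndufa4 at 125 CPM per kb.

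Which complex I mRNAs are higher on tagged ribosomes than in the whole cortex was asked within each group. In Sh + Flx anxious mice 28 of 35 genes were higher in TRAP than in input RNA and none was lower (edgeR's quasi-likelihood test with Benjamini-Hochberg adjustment, threshold 0.05), where 24.0% of all 17015 genes tested were higher and 26.8% lower. The genes' median log2 fold change was 0.61, against -0.08 over all genes. In Sh + Flx mice 24 genes were higher and 1 was lower, with a median of 0.55 (all genes: -0.07, with 24.9% higher and 26.9% lower). In Sh mice 2 were higher and 2 lower, with a median of 0.10 (all genes: 0.01, with 21.3% higher and 18.8% lower). Without Sh TRAP 2 and 3, however, 23 were higher in Sh mice and none lower, with a median of 0.55 (all genes: -0.04, with 26.2% higher and 25.3% lower). In Gh mice 11 were higher and 1 was lower, with a median of 0.32 (all genes: -0.06, with 20.3% higher and 21.9% lower). The fit without Sh TRAP 2 and 3 redoes the filter on low counts and the scaling, and changes the spread that all groups share. There 20 were higher and 2 lower in Gh mice, with a median of 0.39 (all genes: 0.01, with 26.5% higher and 22.8% lower). How much each of these moved the Gh count was not tested. Left at library size without TMM, the median over all genes was 0.10 in Sh + Flx anxious, 0.13 in Sh + Flx, 0.16 in Sh and 0.17 in Gh mice. No complex I gene was then called lower in any group.

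Accessory subunits lay further above input than core subunits. In Sh + Flx anxious mice the median log2 fold change was 0.78 over the proximal membrane arm (7 of 8 higher), 0.74 over the distal membrane arm (8 of 10 higher), 0.61 over the accessory peripheral subunits (8 of 9 higher) and 0.39 over the core subunits (4 of 7 higher). In Gh mice it was 0.31 over the proximal membrane arm (0 of 8 higher), 0.60 over the distal membrane arm (6 of 10 higher), 0.53 over the accessory peripheral subunits (4 of 9 higher) and 0.18 over the core subunits (1 of 7 higher and 1 lower). The calls in Gh mice without Sh TRAP 2 and 3 were 5 of 8 higher and 1 lower in the proximal membrane arm, 6 of 10 higher in the distal membrane arm, 6 of 9 higher in the accessory peripheral subunits and 3 of 7 higher and 1 lower in the core subunits. Genes not called in Sh + Flx anxious mice included Ndufa9, Ndufa10, Ndufb2, Ndufb8, Ndufs1 and Ndufv1. The difference between these roles was not tested. Transcript length and log2 fold change were related over the 35 genes by Spearman's rho of -0.46 in Sh + Flx anxious, -0.40 in Sh + Flx, -0.33 in Sh and -0.33 in Gh mice, a description over genes that share their libraries.

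Ndufv3, an accessory subunit beside the NADH-binding site, had the largest of these fold changes. It stood at 42.4, 34.9, 31.8 and 50.9 CPM in TRAP and at 15.7, 17.9, 15.8 and 18.5 CPM in input of Sh + Flx anxious mice, without overlap (log2 fold change 1.24 ± 0.21 SE, edgeR adjusted p = 1.1e-05). In Gh mice it had 28.3, 33.6 and 31.9 CPM in TRAP, against 15.7, 22.0, 18.4 and 15 CPM in input (0.82, edgeR adjusted p = 0.0035). In Sh mice the groups overlapped, at 32.8, 17.4, 12.2 and 31.7 CPM in TRAP and 13.4 to 16.7 CPM in input, with Sh TRAP 2 and 3 the low libraries (0.59, edgeR adjusted p = 0.025, and 1.09 without them).

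Ndufb4, a subunit of the distal membrane arm, had 71.6, 59.8, 61.9 and 59.7 CPM in TRAP and 28.5, 24.5, 26.0 and 29.3 CPM in input of Sh + Flx anxious mice (log2 fold change 1.22, edgeR adjusted p = 8.6e-05). Every TRAP library was above every input library, as it was in Sh + Flx mice (1.18) and in Gh mice (0.80, edgeR adjusted p = 0.012). In Sh mice the TRAP values of 52.6, 26.3, 12.3 and 53.6 CPM lay on both sides of the input values of 27.2, 28.8, 35 and 29.0 CPM. Ndufa2, of the peripheral arm, and Ndufa13, known in humans as GRIM-19, followed the same pattern, with log2 fold changes of 1.21 and 1.19 in Sh + Flx anxious mice.

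**Figure D3:**
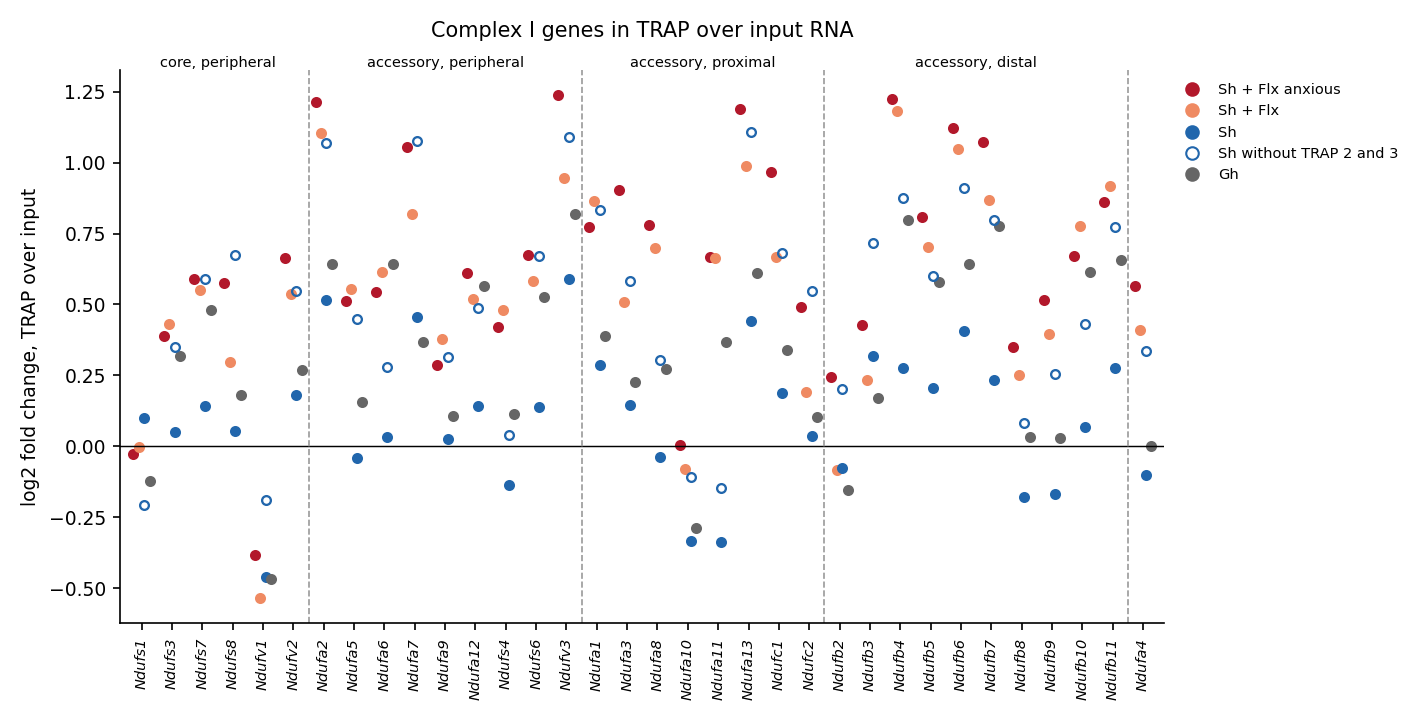
Log2 fold change of TRAP over input RNA for 34 of the 35 complex I genes (horizontal axis, ordered by role) in each group, with open circles for Sh without TRAP 2 and 3. Most genes lie above 0 in Sh + Flx anxious (median over the 35 genes 0.61), Sh + Flx (0.55) and Gh (0.32) mice, and Ndufv1 lies below 0 in every group.

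Like Ndufa10 in Sh and Gh mice, Ndufv1, the core subunit that binds NADH and FMN, lay below input in TRAP RNA. It had 28.7, 27.4, 20.3 and 28.0 CPM in TRAP and 34.8, 35.2, 30.5 and 35.4 CPM in input of Sh + Flx anxious mice, and 20.1, 22.0, 26.5 and 24.3 CPM in TRAP and 32, 35.5, 34.2 and 32.9 CPM in input of Sh + Flx mice. TRAP libraries were below input libraries without overlap in both. The log2 fold change passed the test in Sh + Flx (-0.53 ± 0.17 SE, edgeR adjusted p = 0.011), Sh (-0.46, edgeR adjusted p = 0.036, and -0.19 without Sh TRAP 2 and 3, adjusted p = 0.28) and Gh mice (-0.47, edgeR adjusted p = 0.049). The call in Gh mice was lost with DESeq2 (-0.40, adjusted p = 0.081), with DESeq2's size factors in edgeR, with library size alone, with no filter, and with libraries 1 and 4 or 2 and 3 alone. In Sh + Flx anxious mice it was -0.38 (edgeR adjusted p = 0.067). Ndufv2, its partner in the NADH-binding module, was higher in TRAP RNA of Sh + Flx anxious mice, at 77.4 to 89.2 CPM against 49.6 to 57.4 CPM in input.

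Among the other core subunits, Ndufs7 and Ndufs8, which hold the last iron-sulfur clusters before the quinone, had log2 fold changes of 0.59 and 0.58 in Sh + Flx anxious and 0.48 and 0.18 in Gh mice. Ndufs3 had 0.39 in Sh + Flx anxious and 0.32 in Gh mice. All 3 were called in Sh + Flx anxious mice, Ndufs8 at an edgeR adjusted p of 0.04955, and of them Ndufs7 was called in Gh mice, as was Ndufs3 without Sh TRAP 2 and 3. Of the proximal membrane arm, Ndufc1 had 51.1, 58.4, 57.1 and 74.0 CPM in TRAP and 34.8, 27.5, 26.6 and 34.2 CPM in input of Sh + Flx anxious mice, without overlap (0.97, edgeR adjusted p = 6.6e-05). In Gh mice its TRAP libraries had 56.1, 45.1 and 39.9 CPM and its input libraries 36.8, 36.8, 39.5 and 35.2 CPM, also without overlap, and the log2 fold change of 0.34 was not called (edgeR adjusted p = 0.0065 without Sh TRAP 2 and 3). Ndufa1, encoded on the X chromosome, had 0.77 in Sh + Flx anxious, 0.87 in Sh + Flx, 0.29 in Sh and 0.39 in Gh mice, with calls in both fluoxetine groups, and in all 4 groups without Sh TRAP 2 and 3.

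Ndufs1 (log2 fold change -0.03), Ndufa10 (0.00) and Ndufb2 (0.25) did not pass the test in Sh + Flx anxious mice, and their TRAP and input libraries overlapped. Ndufa10 had 79.9, 76.4, 75.6 and 81.4 CPM in TRAP and 78.5, 75.9, 75.7 and 82.5 CPM in input there. Its Sh TRAP libraries, at 68.5, 70.7, 32.2 and 64.7 CPM, lay below the 72.5 to 75.9 CPM of Sh input. In Gh mice it had 65.8, 63.1 and 69.5 CPM in TRAP and 77.4, 89.6, 80.6 and 74.8 CPM in input, also without overlap. The log2 fold change in Gh mice was -0.29 and not called. Without Sh TRAP 2 and 3 it was -0.21 and called lower. The markers of other cell types that moved with the fraction, given above, were not tested for a part in these results. In bulk RNA, fewer cells of a type and less RNA per cell cannot be told apart.

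The effect of isolation alone on tagged ribosomes is the comparison of Sh with Gh TRAP RNA. Of 35 genes, 34 had a log2 fold change below 0 in Sh against Gh TRAP RNA, with a median of -0.40 (all genes: 0.02), and none passed edgeR's test, where 0% of all 16754 genes were called. DESeq2 called 3 lower (Ndufa6, Ndufa11 and Ndufs4), where it called 0.442% of all genes lower. Without Sh TRAP 2 and 3 the median was -0.02 and 19 genes lay below 0, again with none called (all genes called: 0.0353%).

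Values of the 3 genes that DESeq2 called follow. Ndufs4, an accessory subunit that helps hold the NADH-binding module in place and is mutated in human Leigh syndrome, had 74.7, 68.4, 56.0 and 74.8 CPM in Sh TRAP and 105, 91.5 and 90.1 CPM in Gh TRAP libraries. The log2 fold change was -0.48 ± 0.13 SE (edgeR adjusted p = 0.21), and -0.37 without Sh TRAP 2 and 3 (adjusted p = 0.21). Ndufa11, a membrane subunit, had 9.92, 8.38, 6.63 and 8.48 CPM in Sh TRAP and 16, 12.1 and 18.4 CPM in Gh TRAP libraries. All 4 Sh libraries were low, and the log2 fold change was -0.89 (edgeR adjusted p = 0.21), or -0.77 without Sh TRAP 2 and 3. Ndufa6, which binds the acyl carrier protein, had 27.2, 18.8, 19.9 and 25.2 CPM in Sh TRAP and 52.9, 33.0 and 34.2 CPM in Gh TRAP libraries, with the highest value in Gh TRAP 1 (-0.81, edgeR adjusted p = 0.21, and -0.62 without Sh TRAP 2 and 3).

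Fluoxetine-treated mice were compared with Sh mice, which had the same isolation and no drug. In TRAP RNA of Sh + Flx anxious mice 10 of 35 genes were higher than in Sh mice and none was lower, where 4.35% of all genes tested were higher and 6.14% lower. The median log2 fold change was 0.61 (all genes: -0.01). The 10 genes were Ndufa8, Ndufs4, Ndufa11, Ndufa3, Ndufa12, Ndufv2, Ndufa6, Ndufb10, Ndufb5 and Ndufc1. In TRAP RNA of Sh + Flx mice 4 genes were higher than in Sh mice (Ndufa11, Ndufs4, Ndufa8 and Ndufb10) and none was lower, where 2.65% of all genes were higher and 3.81% lower. The median was 0.47 (all genes: -0.02).

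Both counts fell when Sh TRAP 2 and 3 were left out. Without them 2 genes were higher in Sh + Flx anxious mice (Ndufa8 and Ndufs4, median over the 35 genes 0.26, with 2.64% of all genes higher) and none in Sh + Flx mice (median 0.12, with 1.16% of all genes higher). Leaving out 1 library at a time gave counts between 3 and 22 for Sh + Flx anxious and between 0 and 13 for Sh + Flx. Shares of all genes are not given for these settings, so the counts show only how far they moved. The Sh + Flx anxious count was 3 or 4 without Sh TRAP 2, without Sh TRAP 3 or without any 1 of the Sh + Flx anxious TRAP libraries, and 22 or 21 without Sh TRAP 1 or 4. The Sh + Flx count was 0 without Sh TRAP 2, 1 without Sh TRAP 3, 0 without Sh + Flx TRAP 1, 2 or 3, and 13 or 11 without Sh TRAP 1 or 4. The oligodendrocyte, nuclear RNA and S100a10 values of Sh TRAP 2 and 3, given above, were not tested for a part in these counts. Neither was the smaller number of libraries.

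**Figure D4:**
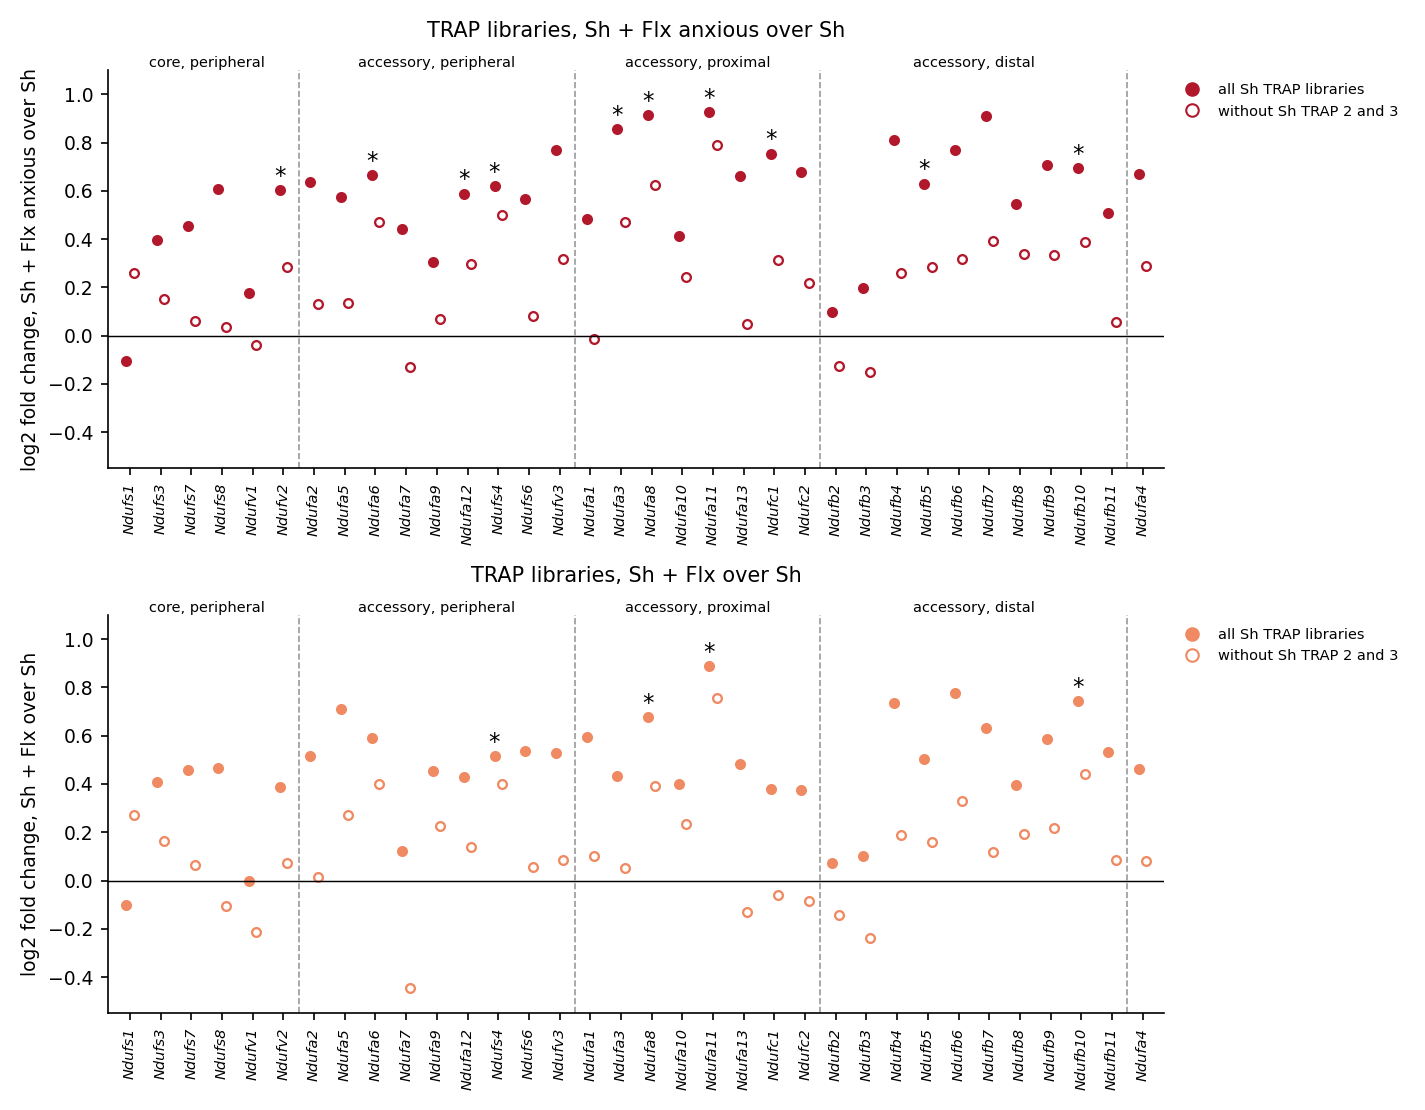
Log2 fold change of 34 of the 35 complex I genes (horizontal axis, ordered by role) in TRAP RNA of Sh + Flx anxious over Sh mice (top) and of Sh + Flx over Sh mice (bottom). Filled circles use all Sh TRAP libraries, open circles leave out Sh TRAP 2 and 3, and asterisks mark genes past an adjusted p of 0.05 with all libraries (10 at the top, 4 at the bottom). Open circles lie closer to 0 for most genes, with medians over the 35 genes of 0.26 and 0.12.

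Ndufs4 had 112, 96.7, 109 and 102 CPM in Sh + Flx anxious, 93.5, 105, 98.4 and 96.3 CPM in Sh + Flx and 74.7, 68.4, 56.0 and 74.8 CPM in Sh TRAP libraries. All 8 libraries of treated mice lay above all 4 Sh libraries, including Sh TRAP 1 and 4. The log2 fold change over Sh was 0.62 ± 0.12 SE in Sh + Flx anxious mice (edgeR adjusted p = 0.0081, and 0.50 with adjusted p = 0.017 without Sh TRAP 2 and 3) and 0.51 ± 0.12 SE in Sh + Flx mice (edgeR adjusted p = 0.026, and 0.40 with adjusted p = 0.066 without them). The gene lies on chromosome 13 of GRCm38 between 114287795 and 114388094.

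Ndufa8, on the face of the membrane arm toward the intermembrane space, had 48.0, 40.7, 39.9 and 51.6 CPM in Sh + Flx anxious, 36.5, 40.1, 42.3 and 35.1 CPM in Sh + Flx and 29.0, 19.9, 17.0 and 29.8 CPM in Sh TRAP libraries. Neither treated group overlapped Sh. The log2 fold change was 0.91 ± 0.17 SE in Sh + Flx anxious (edgeR adjusted p = 0.0069, and 0.62 with adjusted p = 0.020 without Sh TRAP 2 and 3) and 0.68 ± 0.17 SE in Sh + Flx mice (edgeR adjusted p = 0.031, and 0.39 with adjusted p = 0.15 without them). It lies on chromosome 2 between 36036324 and 36049338.

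Ndufa11 had 17.5, 15.1, 13.3 and 17.5 CPM in Sh + Flx anxious, 16.8, 18.2, 16.7 and 10.6 CPM in Sh + Flx and 9.92, 8.38, 6.63 and 8.48 CPM in Sh TRAP libraries. The groups did not overlap, although Sh + Flx TRAP 4 came close to Sh TRAP 1. The log2 fold change was 0.93 ± 0.21 SE in Sh + Flx anxious (edgeR adjusted p = 0.013) and 0.89 ± 0.21 SE in Sh + Flx mice (edgeR adjusted p = 0.024). Without Sh TRAP 2 and 3 it was 0.79 (adjusted p = 0.061) and 0.76 (adjusted p = 0.093). The gene lies on chromosome 17 between 56717762 and 56724248.

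**Figure D5:**
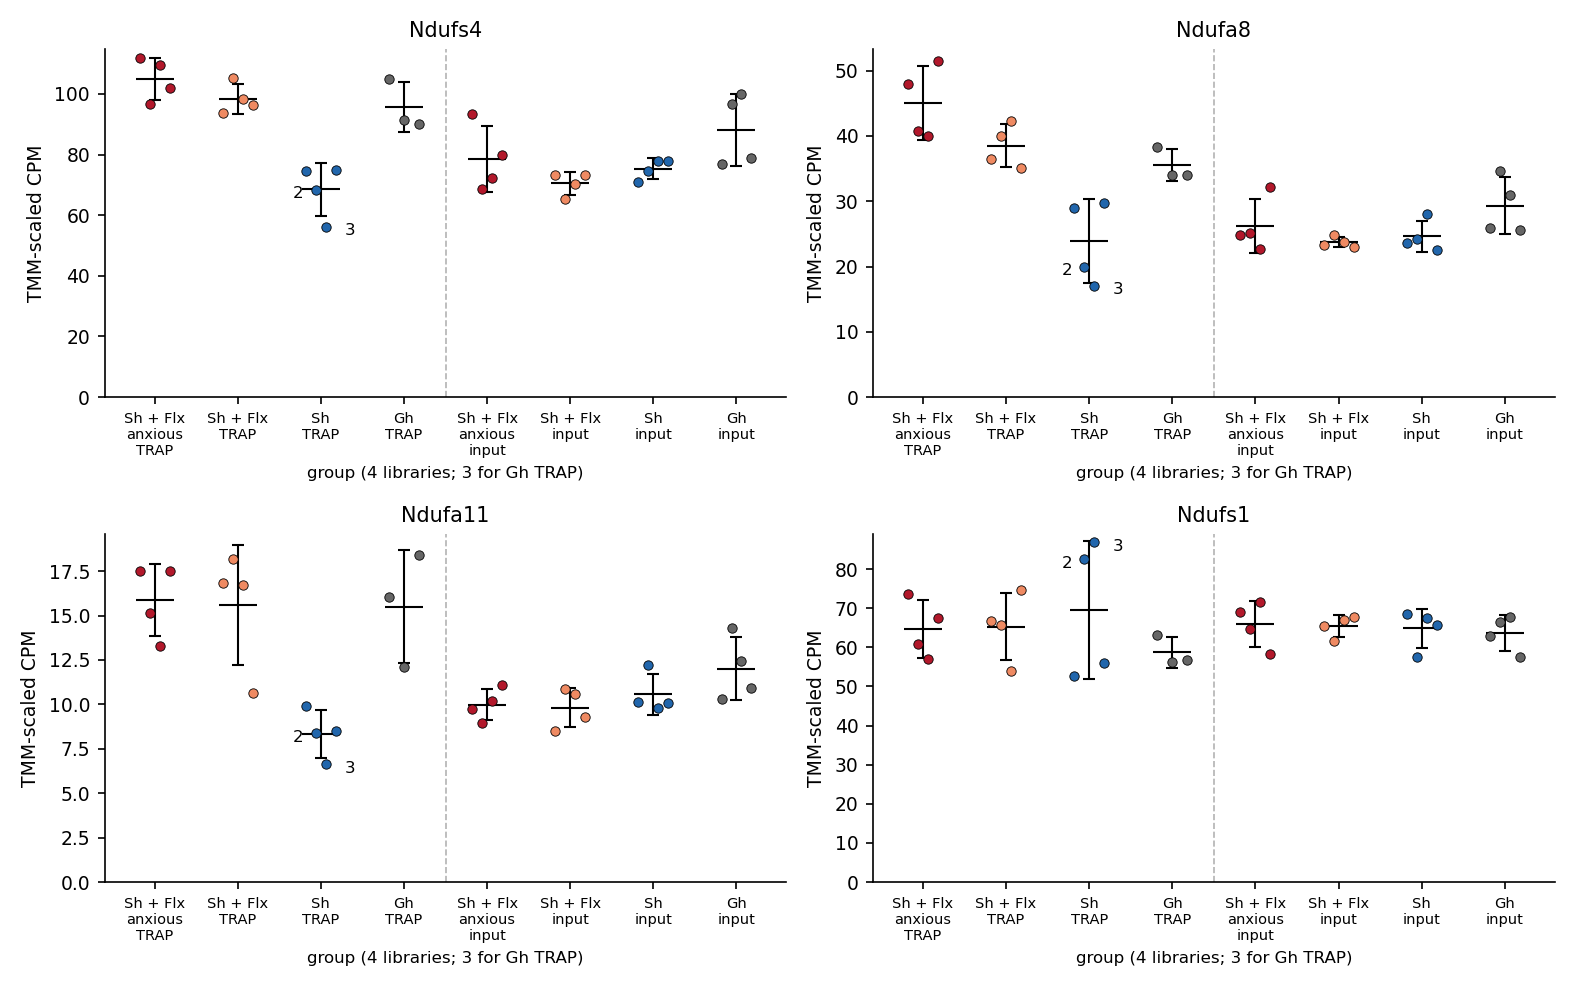
TMM-scaled CPM of Ndufs4, Ndufa8, Ndufa11 and Ndufs1 in each library, with TRAP groups left of input groups, group means as horizontal lines and SD as bars. Sh TRAP 2 and 3 are numbered. Among TRAP libraries, the first 3 genes are lowest in those of Sh mice, and Ndufs1 is highest in Sh TRAP 2 (82.5) and 3 (86.9).

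For other genes called in Sh + Flx anxious mice the fold change also fell without Sh TRAP 2 and 3. Ndufv2 had 89.2, 83.3, 77.4 and 87.5 CPM in Sh + Flx anxious and 67.8, 44.8, 38.7 and 71.4 CPM in Sh TRAP libraries (log2 fold change 0.60, edgeR adjusted p = 0.033, and 0.29 without Sh TRAP 2 and 3, adjusted p = 0.20). Ndufb5, of the distal membrane arm, had 120, 111, 97.9 and 124 CPM in Sh + Flx anxious and 94.8, 62.7, 44.1 and 92.3 CPM in Sh TRAP libraries (0.63, edgeR adjusted p = 0.040, and 0.28 without them). In both genes Sh TRAP 1 and 4 came near the lowest Sh + Flx anxious library. Ndufb10, also of the distal arm, had log2 fold changes of 0.70 in Sh + Flx anxious and 0.74 in Sh + Flx mice, and 0.39 and 0.44 without Sh TRAP 2 and 3. Genes that were not called included Ndufs1, at -0.11 in Sh + Flx anxious and -0.10 in Sh + Flx mice, and 0.26 and 0.27 without those libraries.

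By role, the median log2 fold change in Sh + Flx anxious against Sh TRAP RNA was 0.72 over the proximal membrane arm (4 of 8 higher), 0.66 over the distal membrane arm (2 of 10 higher), 0.59 over the accessory peripheral subunits (3 of 9 higher) and 0.39 over the core subunits (1 of 7 higher, Ndufv2). With Sh TRAP 2 and 3 left out the median was 0.28 over the proximal membrane arm (1 of 8 higher), 0.30 over the distal membrane arm (0 of 10), 0.14 over the accessory peripheral subunits (1 of 9) and 0.10 over the core subunits (0 of 7). Ndufa4 had 0.67, or 0.29 without those libraries, and was not called with or without them. The difference between these roles was not tested.

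With all libraries, no complex I gene was called between the treated groups or between either of them and Gh mice in TRAP RNA. In Sh + Flx anxious against Sh + Flx TRAP RNA none of the 35 genes was called by edgeR or DESeq2 and none had an unadjusted p under 0.05 (all genes called: 0%), with a median log2 fold change of 0.10 (all genes: 0.00). Ndufa3, a small membrane subunit, came closest, at 32.6, 28.7, 27.9 and 32.1 CPM in Sh + Flx anxious and 20.3, 27.4, 25.0 and 18.5 CPM in Sh + Flx libraries. These did not overlap, but the log2 fold change of 0.42 had a 95% interval of -0.04 to 0.89. In Sh + Flx anxious against Gh TRAP RNA none was called by edgeR or DESeq2 and none had an unadjusted p under 0.05 (all genes called: 0.0716%), with a median of 0.14 (all genes: 0.00). In Sh + Flx against Gh TRAP RNA the same held, with 0.00597% of all genes called and a median of 0.07 (all genes: 0.00). Leaving out Sh TRAP 2 and 3 redoes the filter and scaling of these comparisons and changes the spread they share. None was then called in them, where 0%, 2.21% and 1.15% of all genes were called. Sh + Flx anxious, Sh + Flx and Sh were each compared with the same Gh libraries, and both treated groups with the same Sh libraries.

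In input RNA a few complex I genes were lower in treated mice than in Gh mice, and none was called against Sh mice. Of 35 genes, 3 were lower in Sh + Flx anxious than in Gh input (Ndufa5, Ndufa4 and Ndufa7), where 5.27% of all 15690 genes were lower, and none was higher, with a median log2 fold change of -0.16. In Sh + Flx against Gh input 4 were lower (Ndufa4, Ndufa7, Ndufs4 and Ndufc1), where 2.21% of all genes were lower, and none was higher, with a median of -0.11. In Sh against Gh input none was called by edgeR (all genes called: 0.0829%), and DESeq2 called 3 lower (Ndufa3, Ndufa4 and Ndufa5), where it called 0.472% of all genes lower. The median was -0.17.

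Ndufa4 had 140, 108, 108 and 133 CPM in Sh + Flx anxious, 121, 122, 111 and 119 CPM in Sh + Flx, 116, 131, 118 and 123 CPM in Sh and 126, 191, 160 and 141 CPM in Gh input libraries. Gh input 2 was the highest library. The log2 fold change over Gh was -0.34 in Sh + Flx anxious (edgeR adjusted p = 0.015), -0.39 in Sh + Flx (edgeR adjusted p = 0.010) and -0.34 in Sh mice (edgeR adjusted p = 0.17). Ndufa5, an accessory subunit of the peripheral arm, had 37.2, 30.9, 33.8 and 32.9 CPM in Sh + Flx anxious and 38.8, 47.7, 44.6 and 37.5 CPM in Gh input libraries, without overlap (-0.32, edgeR adjusted p = 0.012). Gh input 2 also had the highest sum of all input libraries, at 1664 CPM. Without it no gene was called against Gh in either treated group, and without Gh input 1 the Sh + Flx anxious count was 7.

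No complex I gene was called in input of either treated group against Sh mice, or between the treated groups, by edgeR or by DESeq2. By edgeR 6.86% of all genes were called in Sh + Flx anxious and 2.62% in Sh + Flx against Sh mice. Between the treated groups 0.127% were called. The medians were 0.03, 0.02 and 0.02. The gene with the smallest p against Sh was Ndufc2 in both treated groups, at 32.9, 34.5, 32.1 and 30.4 CPM in Sh + Flx anxious, 31.6, 30.05, 30.4 and 38.2 CPM in Sh + Flx and 29.5, 26.8, 28.6 and 26.9 CPM in Sh input libraries, without overlap with Sh.

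The difference between the changes in TRAP and in input RNA was tested in 1 fit over both fractions. For Sh + Flx anxious against Sh mice it passed the test in 3 of 35 genes, where 2.14% of all genes were higher by this measure. These were Ndufa11 (1.003 ± 0.24 SE on the log2 scale, edgeR adjusted p = 0.014), Ndufa8 (0.82, edgeR adjusted p = 0.019) and Ndufs4 (0.56, edgeR adjusted p = 0.024). For Sh + Flx against Sh mice it passed in the same 3 genes, where 0.864% of all genes were higher, at 1.001 (edgeR adjusted p = 0.026), 0.73 (edgeR adjusted p = 0.048) and 0.62 (edgeR adjusted p = 0.028). Without Sh TRAP 2 and 3 Ndufa11 passed for Sh + Flx anxious (0.91, edgeR adjusted p = 0.045, with 2.12% of all genes higher) and none for Sh + Flx (with 0.675% of all genes higher). In input RNA Ndufa11 had 9.75, 8.95, 10.2 and 11.1 CPM in Sh + Flx anxious and 10.1, 12.2, 9.77 and 10.1 CPM in Sh libraries, which overlapped. For Sh against Gh mice no gene passed by edgeR or DESeq2 (all genes called: 0.0235%).

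Genes that serve the same chain were measured beside complex I. Of 38 subunits of complexes II to V, 15 were higher and none lower in Sh + Flx anxious against Sh TRAP RNA (all genes: 4.35% higher), with a median log2 fold change of 0.67. The count without Sh TRAP 2 and 3 was 5 (all genes: 2.64% higher), with a median of 0.25. Examples were Atp5g1, of the ATP synthase ring (1.16, edgeR adjusted p = 0.0084), Cox5a, of complex IV (0.89, edgeR adjusted p = 0.0070), Sdhb, of complex II (0.66, edgeR adjusted p = 0.0089) and Uqcrfs1, the Rieske protein of complex III (0.64, edgeR adjusted p = 0.0075). These 4 were also called without Sh TRAP 2 and 3, at 0.76 (Atp5g1), 0.62 (Cox5a), 0.48 (Sdhb) and 0.54 (Uqcrfs1). In Sh + Flx against Sh TRAP RNA 9 of 38 were higher (all genes: 2.65%), with a median of 0.54, and 3 without those libraries (all genes: 1.16%). In TRAP against input RNA 28 of 38 were higher and 1 lower in Sh + Flx anxious mice (median 0.65, all genes: 24.0% higher), and 9 were higher in Gh mice (median 0.25, all genes: 20.3% higher). The Gh count was 23 without Sh TRAP 2 and 3 (all genes: 26.5% higher).

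Assembly factors, which build complex I without staying in it, were mixed. Of 17 tested, 2 were higher and none lower in Sh + Flx anxious against Sh TRAP RNA with a median of 0.33, namely Ndufaf3 (0.92, edgeR adjusted p = 0.011) and Timmdc1 (0.66, edgeR adjusted p = 0.040), where 4.35% of all genes were higher. Ndufaf3 was also called without Sh TRAP 2 and 3 (0.85, edgeR adjusted p = 0.032) and Timmdc1 was not (0.34, adjusted p = 0.22), with 2.64% of all genes higher. In TRAP against input RNA 1 was higher and 3 lower in Sh + Flx anxious mice (median -0.09, all genes: 24.0% higher and 26.8% lower) and 2 higher and 2 lower in Gh mice (median -0.17, all genes: 20.3% higher and 21.9% lower). Ndufaf4 was lower in Gh mice (-0.62, edgeR adjusted p = 0.00028) and Nubpl, which delivers iron-sulfur clusters, was higher (0.93, edgeR adjusted p = 0.013).

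Among 13 regulators of respiratory genes, 2 were higher and 2 lower in Sh + Flx anxious against Sh TRAP RNA, with a median of 0.11, where 4.35% of all genes were higher and 6.14% lower. Gabpa, an ETS factor whose letters were searched above, had 0.64 (edgeR adjusted p = 0.013) and Tfam, which packages mitochondrial DNA, 0.60 (edgeR adjusted p = 0.044), whereas Polrmt, the mitochondrial RNA polymerase, had -1.16 (edgeR adjusted p = 0.024) and the coactivator Pprc1 -0.92 (edgeR adjusted p = 0.027). Gabpa was also called without Sh TRAP 2 and 3 (0.42, edgeR adjusted p = 0.047), and Tfam (0.34), Polrmt (-0.95) and Pprc1 (-0.36) were not, where 2.64% of all genes were higher and 1.89% lower. Nrf1, which binds the NRF1 letters, had 0.11 (edgeR adjusted p = 0.76).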

How the data were processed

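Cortical RNA of S100a10 bacTRAP mice was measured as TRAP and input in 32 libraries. Amplification was by Ovation RNA-Seq V2 and sequencing by 75-bp paired ends. The authors aligned to mm10 with TopHat2 2.0.11 and UCSC gene models and deposited raw counts per gene. The sources used here do not name the counting program or its strand setting. Further deposited tables hold the authors' mean FPKM per group (Cufflinks 2.2.1), fold changes and p-values, and were not used. Lines naming no gene (5 per file) were left out, and reads outside genes made up 25.2% to 58.6% of a TRAP library and 45.1% to 55.2% of an input library.

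After TMM scaling and filterByExpr, counts were fitted without covariates with glmQLFit and glmQLFTest of edgeR 4.0.16 (limma 3.58.1, R 4.3.3), in a TRAP fit (16754 genes), an input fit (15690) and a fit of both (17015), with Benjamini-Hochberg adjustment over all genes of a fit. Levels per library are TMM-scaled CPM of the fit of both fractions. Tables and plots used Python 3.11.15, numpy 2.4.6, pandas 2.3.3 and matplotlib 3.10.9. The fits were also run on simulated counts. No simulated library stood apart as Sh TRAP 2 and 3 do, so that check does not bear on the effect of these libraries. Alternatives were DESeq2 1.42.0, other scalings, no filter, leaving out each library, Sh TRAP 2 and 3 or other pairs, and a replicate block. Gene positions, lengths and promoters came from RefSeq GRCm38.p6, the build named mm10, and all 35 genes matched by symbol. Members and gene lists were chosen with earlier results of these data known, and 4 of 35 genes had no promoter entry. Counts, sums and medians cover all 35 genes, and 1 of them is not reported singly here. Per-library values are given mostly for genes named by a fixed rule (the smallest p-values in each comparison). They are also given for Ndufc1 and Ndufv2, which the rule did not name, and not for every gene it named (Ndufa12). Up to 4 genes with the smallest p are named from each other list.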

Additional observations from a re-analysis of the deposited data

Results flagged for a closer look

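In 6 of 140 groups of 4 libraries 1 value stood far from the rest, where chance gives about 1 in 20. Ndufa10 (32.2 CPM) and Ndufv1 (11.4 CPM) were low in Sh TRAP 3, a library that stood apart in many genes. Ndufv1 was also low in replicate 3 of Sh + Flx anxious mice, at 20.3 CPM in TRAP and 30.5 CPM in input. In Sh input, Ndufa11 was high in library 2 (12.2 CPM) and Ndufb5 low in library 3 (56.9 CPM).

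The change between treated and Sh mice differed between TRAP and input RNA in 3 genes, by a test of the difference itself. On the log2 scale it was 1.003 for Ndufa11, 0.82 for Ndufa8 and 0.56 for Ndufs4 in Sh + Flx anxious mice, and 1.001 for Ndufa11, 0.73 for Ndufa8 and 0.62 for Ndufs4 in Sh + Flx mice. Of these, only Ndufa11 in Sh + Flx anxious mice passed the test without Sh TRAP 2 and 3 (0.91, edgeR adjusted p = 0.045). With libraries 1 and 4 alone none passed in either group, and with a replicate block none passed in Sh + Flx mice.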

How the results depend on the processing

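Counts here are complex I genes called, with the count of the report in brackets. For most of these settings the share of all genes called is not given. The counts in this section show how far results move with the processing, and are not read as an excess over all genes. DESeq2 gave 3 for Sh against Gh in TRAP (0), 17 for Sh + Flx anxious (10) and 7 for Sh + Flx (4) against Sh in TRAP, 6 for Sh + Flx anxious (3) and 3 for Sh (0) against Gh in input, and 7 for the difference of changes of Sh + Flx anxious against Sh (3). Without Sh TRAP 2 and 3 the counts were 2 for Sh + Flx anxious (10) and 0 for Sh + Flx (4) against Sh in TRAP, 23 and 22 for TRAP against input in Sh (4) and Gh (12), and 1 and 0 for the differences of changes of Sh + Flx anxious and Sh + Flx (3 each). Libraries 2 and 3 of every group alone gave 28 for Sh + Flx anxious and 29 for Sh + Flx against Sh in TRAP. They gave 17, 9 and 4 for Sh + Flx anxious, Sh + Flx and Sh against Gh in input, and 15 (1 higher and 14 lower) for TRAP against input in Sh. The differences of changes of Sh + Flx anxious and Sh + Flx against Sh gave 29 each. The Sh TRAP arm there is Sh TRAP 2 and 3, which stood apart in many genes. There the Gh TRAP arm is 1 sample, the sum of Gh TRAP 2 and 3, so counts of comparisons with it are not given. Libraries 1 and 4 alone gave 6 and 0 for Sh + Flx anxious and Sh + Flx against Sh in TRAP, 1 for Sh + Flx anxious against Gh in TRAP, 0 for both treated groups against Gh in input, 25 (all higher) and 23 for TRAP against input in Sh and Gh, and 0 for both differences of changes against Sh. Library size alone gave 5 for Sh + Flx anxious against Sh in TRAP (10) and 20 for TRAP against input in Gh (12). DESeq2's size factors in edgeR gave 2, and no filter gave 2, for TRAP against input in Sh (4).

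Leaving out 1 library at a time gave 3 to 22 for Sh + Flx anxious and 0 to 13 for Sh + Flx against Sh in TRAP, 0 to 7 for Sh + Flx anxious, 0 to 6 for Sh + Flx and 0 to 1 for Sh against Gh in input, 1 to 15 and 8 to 16 for TRAP against input in Sh and Gh, and 2 to 19 and 0 to 10 for the differences of changes of Sh + Flx anxious and Sh + Flx against Sh. In TRAP against input in Sh the count was 15 without Sh TRAP 3 and 10 without Sh TRAP 2.

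Correlations of same-numbered deviations ran from -0.14 to 0.13. Differently numbered libraries were not compared, so these values do not decide whether replicate numbers pair the libraries. The fits with a replicate block kept Gh TRAP 2 and Gh TRAP 3 as separate libraries, unlike the main fits. Their counts were 2 for TRAP against input in Sh (4), 5 for the difference of changes of Sh + Flx anxious (3) and 0 for that of Sh + Flx (3). Ndufv1 in Sh + Flx against Sh TRAP was 0.0421 with the block.

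Some fold changes changed sign. Ndufs1 in TRAP was 0.26 and 0.27 for Sh + Flx anxious and Sh + Flx against Sh, and -0.13 for Sh against Gh, without Sh TRAP 2 and 3, and 0.38, 0.41 and -0.17 with libraries 1 and 4 alone. With 1 library left out it ran from -0.23 to 0.0270 for Sh + Flx anxious and from -0.22 to 0.0389 for Sh + Flx. Ndufv1 in Sh + Flx against Sh TRAP was 0.0246 with library size, 0.0132 with no filter and 0.30 with libraries 2 and 3 alone, and -0.22 to 0.10 with 1 library left out. In TRAP against input of Gh mice Ndufb2 was 0.0848 with library size and 0.0788 with libraries 1 and 4 alone, and Ndufs1 was 0.12 and 0.0666. Ndufv3 in TRAP against input of Sh mice, called at 0.59 with all libraries, was -0.16 with libraries 2 and 3 alone. The cause of these changes was not tested. Apart from settings that left out 1 library, 265 values of named genes kept their direction and side of the threshold, 34 lost the call with the same direction, 7 gained it and 15 changed sign.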
